A study of Rattus norvegicus with 9 samples.

Results

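The genes that set and carry out hepatic iron handling were examined in rat liver 24 h after total-body irradiation (TBI). The 10 genes were Hamp, Hfe2 (now named Hjv), Tfr2, Bmp6, Id1, Smad7, Tfrc, Tf, Fth1 and Slc40a1. They were chosen by name, with earlier results of these data known. All array probes whose RefSeq accession led to one of them were taken, which gave 15 of the 41012 probes on the array. Of these 15 probes, 14 probes of 9 genes passed the filter for signal above background. The only probe of Bmp6 did not, and it is described by its values alone.

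Liver RNA of 9 male Wistar rats was hybridised on one-colour Agilent arrays, 1 array per rat, with 3 rats in each of 3 groups. Control rats received neither radiation nor Hong Shan Capsule (HSC), a crude drug made from medicinal herbs. TBI rats received 6.5 Gy from a 60Co source at 2 Gy/min without HSC, and HSC + TBI rats were given HSC by the intragastric route on 3 consecutive days before the same exposure. The sample labels give the HSC dose as 30 mg/kg per day and the series text as 10 g/kg per day, so the dose is uncertain here. No arm with HSC alone was analysed here, and the age of the rats is not given in the sources used here. The 3 rats of a group stand for arms of 10 to 12 animals. A difference between HSC + TBI and TBI is therefore one between 2 irradiated groups.

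Hepcidin, the product of Hamp, is the liver hormone that lowers the release of iron into plasma by binding the exporter ferroportin (Slc40a1). Hepatocytes transcribe Hamp under 2 main inputs. Bone morphogenetic proteins such as Bmp6 act with the co-receptor hemojuvelin (Hfe2) through SMAD proteins, and interleukin 6 acts through STAT3. Id1 and Smad7 are target genes of the same BMP-SMAD signal, and Smad7 feeds back to restrain it. Iron enters cells when transferrin (Tf) binds transferrin receptor 1 (Tfrc), whose mRNA is stabilised by iron regulatory proteins when cellular iron is low. Ferritin (Fth1 is its heavy chain) stores the iron taken up.

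Promoter sequences of 9 of the 10 genes, all but Fth1, were found in the RefSeq promoter table (build GRCr8), each holding 250 bases before and 50 after the annotated start. The 250 bases before the start are shown for Hamp, Id1 and Tfrc, the genes called after TBI. Capitals mark GGCGCC, a core of BMP response elements, and TTCNNNGAA, the general form of a STAT site. The form TTCNNNGAA was added to the search after the promoters were seen, so its matches are a description only. The stricter TTCCNGGAA, chosen beforehand, was absent from the Hamp promoter.
Hamp: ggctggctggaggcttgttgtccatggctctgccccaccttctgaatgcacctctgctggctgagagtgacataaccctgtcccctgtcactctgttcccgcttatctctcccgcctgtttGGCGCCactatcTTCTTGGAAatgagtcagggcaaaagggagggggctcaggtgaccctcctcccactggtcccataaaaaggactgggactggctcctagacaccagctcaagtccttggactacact
Id1: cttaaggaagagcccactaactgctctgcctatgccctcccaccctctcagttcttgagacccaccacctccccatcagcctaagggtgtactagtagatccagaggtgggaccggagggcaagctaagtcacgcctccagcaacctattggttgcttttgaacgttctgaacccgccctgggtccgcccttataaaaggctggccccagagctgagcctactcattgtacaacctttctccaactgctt
Tfrc: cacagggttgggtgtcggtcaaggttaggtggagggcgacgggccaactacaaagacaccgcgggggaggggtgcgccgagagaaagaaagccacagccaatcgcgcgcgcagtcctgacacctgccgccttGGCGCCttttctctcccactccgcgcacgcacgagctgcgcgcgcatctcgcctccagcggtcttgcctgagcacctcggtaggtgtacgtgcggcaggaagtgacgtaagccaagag
The Hamp stretch lies at chr1:95300272-95300521 on the minus strand, that of Id1 at chr3:161671314-161671563 on the plus strand, and that of Tfrc at chr11:81690319-81690568 on the minus strand. In Hamp the GGCGCC begins 129 bases before the start, and the STAT form TTCTTGGAA begins 117 bases before it, without overlap between them. In Tfrc the GGCGCC begins 118 bases before the start, and the Id1 stretch held none of the motifs searched. On either strand, GGCGCC was present in the 300-base promoters of 3 of 9 members (Hamp, Smad7, Tfrc) and in 11% of all 33469 promoters. TTCNNNGAA was present in 2 of 9 (Hamp, Hfe2) and in 8.87% of all promoters, and its stricter form TTCCNGGAA in 1 of 9 (Hfe2) and in 1.27%. The SMAD motif GTCTAGAC, either strand, was in 0 of 9 and in 0.197% of all promoters, and CAGTGN, the loop of an iron-responsive element, was in 0 of these 9, Fth1 not among them, in the 50 bases after the start, sense strand, against 7.26% of all promoters. A match is a description of letters in this window and not a binding site. The rest of each transcript was not searched, so an iron-responsive element beyond the 50 bases after the start would not be seen.

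Values are log2 quantile-normalized signals, and levels are compared only within a probe. A difference was called when the Benjamini-Hochberg adjusted p of limma over the 25369 tested probes was under 0.05 and the change was at least 1.5-fold. With 3 rats against 3, an exact two-sided permutation test of a single gene cannot go below p = 0.1. The share of probes above background was 56.6% to 59.3% on Control arrays, 63.6% to 69.5% on TBI arrays and 58.7% to 60.5% on HSC + TBI arrays. The 3 Control arrays shared 1 slide, the 3 TBI arrays another, and the HSC + TBI arrays lay on a further 2 slides, so group and slide cannot be told apart. All 8 hepatocyte markers were above background on all 9 arrays, and their summed signal overlapped between the groups (894284 to 960295 in Control, 835456 to 1025630 in TBI, 919332 to 1006300 in HSC + TBI). The brightest markers weigh most in this linear sum, and quantile normalization ties their values to their rank. The overlap therefore does not measure the share of hepatocytes. Taken singly, 4 of the 8 markers were higher and 4 lower in TBI against Control (log2 fold change -0.53 to 0.52). In HSC + TBI against Control, 7 were higher and 1 lower (-0.27 to 0.51). In whole liver RNA, fewer cells of a type and less RNA per cell cannot be told apart.

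After TBI, 3 of the 9 tested genes were up-regulated against Control and none was down-regulated: Tfrc, Id1 and Hamp. Over all probes, 7.25% were called in this comparison and 3.54% were called higher. The genes were chosen with earlier results of these data known, so setting them beside these shares is a description and no test. In HSC + TBI against Control, 1 of the 9 genes (Tfrc) was up-regulated, with 3.23% of all probes called and 1.19% called higher. In HSC + TBI against TBI, 0 of the 9 genes were called by limma, with 0.796% of all probes called. At an unadjusted limma p under 0.05, 1 of the 9 (Tfrc) passed in that comparison, beside 4124 of all 25369 tested probes. The methods' t-test with adjusted p also called 0 of the 9 there. It called only 2 of all 25369 tested probes in that comparison, so its 0 of 9 says little about these genes. The median log2 fold change of the 9 genes was 0.34 in TBI against Control, 0.20 in HSC + TBI against Control and -0.15 in HSC + TBI against TBI, beside medians of -0.01, 0.05 and 0.06 over all tested probes. Any 2 of these comparisons share 1 group of rats.

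**Figure D1:**
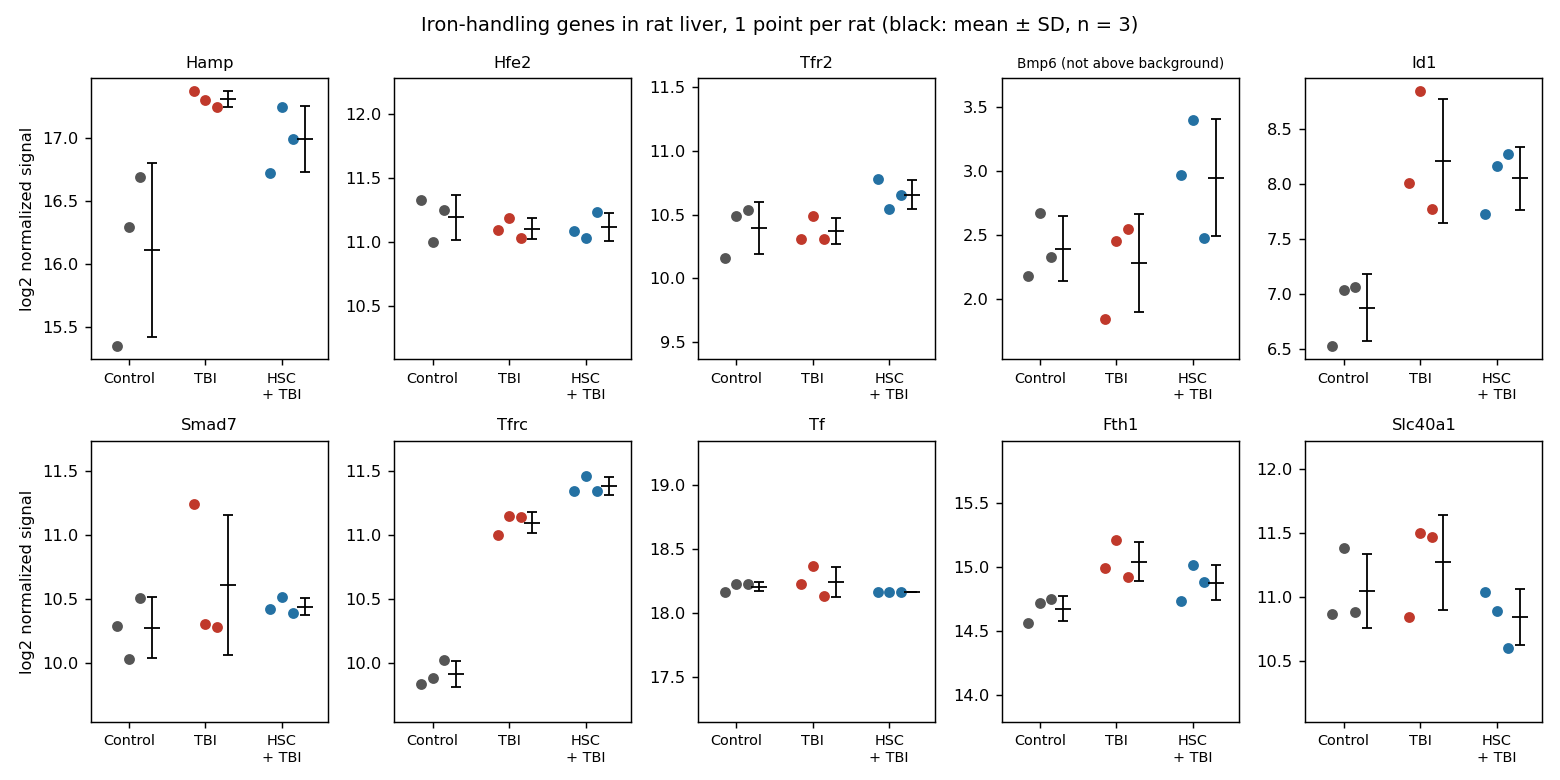
Log2 normalized signal (y axis) of the brightest probe of each of the 10 genes in 3 Control (grey), 3 TBI (red) and 3 HSC + TBI (blue) rats, 1 point per rat, with the mean and SD in black. Axis positions differ between panels. Tfrc and Id1 are higher in all irradiated rats than in any Control rat, Hamp varies most among the Control rats, and Bmp6 is not above background on any array.

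The plot of signals by rat shows Tfrc, Id1 and Hamp as the genes whose irradiated rats all lie above the Control rats by more than the 1.5-fold threshold on average. The other genes differ less, and most of their groups overlap.

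Hamp, the hepcidin gene, had log2 signals of 15.35, 16.29 and 16.69 in Control, 17.37, 17.31 and 17.25 in TBI, and 16.73, 17.25 and 17.00 in HSC + TBI. All TBI and all HSC + TBI rats lay above the highest Control rat, by little for HSC + TBI rat 1, and the Control rats spanned a 2.55-fold range while the TBI rats spanned 1.09-fold. The highest HSC + TBI rat and the lowest TBI rat were level at 17.25. Hamp was up-regulated 2.30-fold by TBI (log2 fold change 1.20, SE 0.31, limma adjusted p = 0.0489). With HSC + TBI against Control the log2 difference was 0.88 (95% CI 0.18 to 1.58, limma adjusted p = 0.162), which was not called. Between HSC + TBI and TBI it was -0.32 (95% CI -1.02 to 0.38, limma adjusted p = 0.643), an interval that holds differences in either direction.

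The Hamp call lies at the edge of the threshold. It held in only 1 of the 9 fits that each left out 1 rat, the one without Control 3 (log2 fold change 1.49, limma adjusted p = 0.0350). In the other 8 fits, which left out Control 1, Control 2, any TBI rat or any HSC + TBI rat, the log2 fold change was 0.82 to 1.29 and the limma adjusted p was 0.0562 to 0.110. The lowest value, 0.82, was that without Control 1. The call was also lost without the filter on dim probes, in a fit of the compared groups alone, with the replicate block and with the methods' t-test after adjustment, while the log2 fold change stayed between 1.16 and 1.23 over all 11 other settings of the processing.

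**Figure D2:**
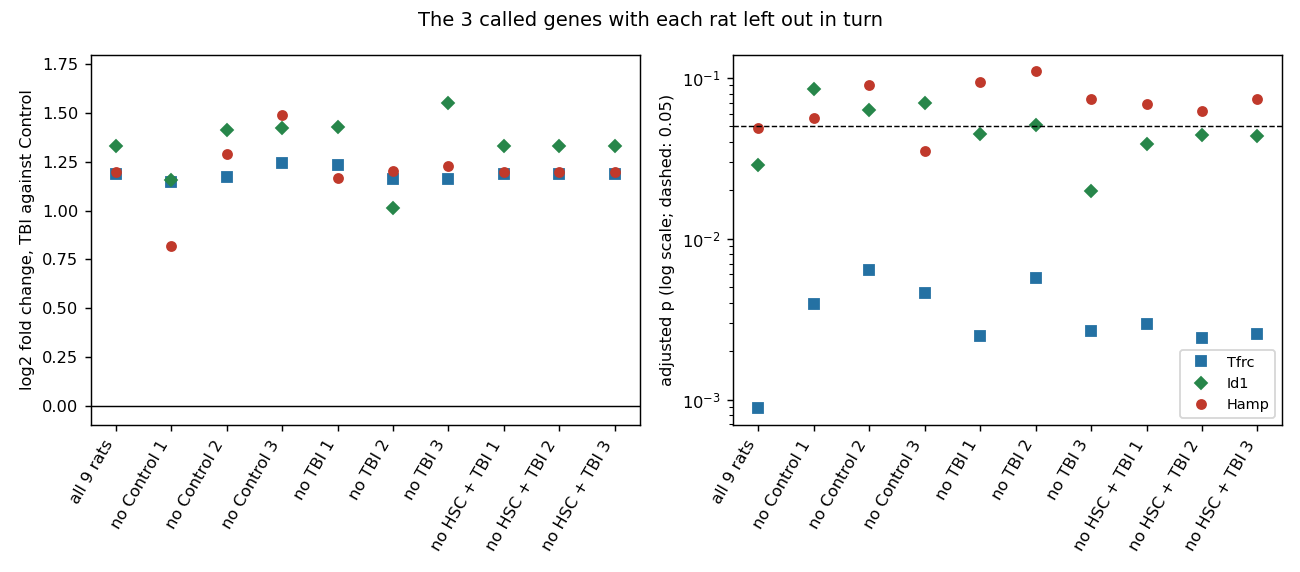
Log2 fold change in TBI against Control (left y axis) and limma adjusted p (right y axis, log scale, dashed line at 0.05) of Tfrc (blue squares), Id1 (green diamonds) and Hamp (red circles), fitted with all 9 rats and after removing 1 rat at a time (x axis). Tfrc stays below the line in all 9 reduced fits, Id1 in 5 and Hamp in 1.

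As the plot of fits with 1 rat left out shows, the size of the Hamp change moved most when Control 1 or Control 3 was left out, and that of Tfrc moved least of the 3 genes.

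Hfe2, the BMP co-receptor hemojuvelin, had log2 signals of 11.33, 11.00 and 11.25 in Control, 11.10, 11.19 and 11.03 in TBI, and 11.08, 11.03 and 11.24 in HSC + TBI. The 3 groups overlapped. The log2 difference was -0.09 (95% CI -0.38 to 0.20) in TBI against Control and 0.01 (95% CI -0.28 to 0.30) in HSC + TBI against TBI. A second Hfe2 probe gave -0.09, -0.08 and 0.02 in the 3 comparisons, each with a limma adjusted p above the threshold (0.701, 0.802 and 0.966).

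Tfr2, transferrin receptor 2, which takes part in the hepatocyte's sensing of transferrin iron, had log2 signals of 10.16, 10.49 and 10.54 in Control, 10.31, 10.49 and 10.31 in TBI, and 10.78, 10.55 and 10.65 in HSC + TBI. Each HSC + TBI rat lay above all other rats, by a small margin over Control 3. The difference from TBI was 0.29 on the log2 scale (95% CI -0.02 to 0.60, limma adjusted p = 0.345) and that from Control was 0.26 (95% CI -0.05 to 0.57, limma adjusted p = 0.333), and neither was called. TBI against Control gave -0.03 (95% CI -0.34 to 0.29), whose sign turned under the 75th percentile shift (0.02) and under normexp background correction (0.08).

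The Bmp6 probe was above background on 0 of 9 arrays. Its log2 signals were 2.17, 2.67 and 2.33 in Control, 1.84, 2.46 and 2.55 in TBI, and 2.97, 3.40 and 2.48 in HSC + TBI. These values overlapped and give no fold change. In liver, Bmp6 is known to come mainly from sinusoidal endothelial cells. The 6 endothelial markers on the array were all above background on all 9 arrays, with summed signals of 18245 to 22331 in Control, 24885 to 27653 in TBI and 21966 to 24070 in HSC + TBI.

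The target genes of the BMP-SMAD signal differed between themselves. Id1, an inhibitor of basic helix-loop-helix transcription factors, had log2 signals of 6.53, 7.04 and 7.07 in Control, 8.01, 8.85 and 7.77 in TBI, and 7.73, 8.17 and 8.27 in HSC + TBI. All 6 irradiated rats lay above all 3 Control rats, and the TBI and HSC + TBI rats overlapped. Id1 was up-regulated 2.52-fold by TBI (log2 fold change 1.33, SE 0.29, limma adjusted p = 0.0288). After HSC + TBI it was 1.18 higher than in Control on the log2 scale (95% CI 0.51 to 1.84, limma adjusted p = 0.0692), which was not called, and it was called there when TBI rat 2 was left out of the fit (limma adjusted p = 0.0315). Between HSC + TBI and TBI the log2 difference was -0.15 (95% CI -0.82 to 0.51, limma adjusted p = 0.827).

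The Id1 call in TBI against Control held in 5 of the 9 fits with 1 rat left out. It was lost without Control 1 (log2 fold change 1.16, limma adjusted p = 0.0852), without Control 2 (1.41, 0.0633), without Control 3 (1.43, 0.0700) and without TBI 2 (1.01, 0.0513). Endothelial cells also express Id1, and the summed endothelial markers given above were higher in all TBI rats than in all Control rats. Taken singly, 4 of the 6 endothelial markers were higher and 2 lower in TBI against Control (log2 fold change -0.54 to 0.53). Their part in the Id1 result was not tested.

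Smad7, the inhibitory SMAD, had log2 signals of 10.29, 10.03 and 10.51 in Control, 11.25, 10.31 and 10.28 in TBI, and 10.42, 10.51 and 10.39 in HSC + TBI. One TBI rat stood above all others and the remaining 2 lay inside the Control range. The log2 difference in TBI against Control was 0.34 (95% CI -0.25 to 0.92, limma adjusted p = 0.446), and Smad7 was not called in any comparison. The HSC + TBI against TBI value was -0.17, and it was 0.15 without TBI 1.

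Tfrc, which imports transferrin-bound iron, showed the changes with the smallest adjusted p among the 9 genes. Its brightest probe had log2 signals of 9.83, 9.88 and 10.02 in Control, 11.00, 11.15 and 11.15 in TBI, and 11.34, 11.46 and 11.35 in HSC + TBI. The 3 groups did not overlap, in the order Control, TBI, HSC + TBI. Tfrc was up-regulated 2.28-fold in TBI against Control (log2 fold change 1.19, SE 0.11, limma adjusted p = 0.000884) and 2.78-fold in HSC + TBI against Control (1.47, SE 0.11, limma adjusted p = 0.000346). Both calls held in all 9 fits with 1 rat left out, with log2 fold changes of 1.15 to 1.24 and of 1.43 to 1.53, and under all 11 other settings of the processing.

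Between the 2 irradiated groups, Tfrc was 1.22-fold higher in HSC + TBI than in TBI (log2 difference 0.29, 95% CI 0.04 to 0.53). With an unadjusted p of 0.0282 and a limma adjusted p of 0.244, this difference was not called.

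The other 2 Tfrc probes allowed a check within the gene. The second probe, printed 10 times on each array, had log2 signals of 5.04, 5.05 and 5.17 in Control, 6.17, 6.34 and 6.75 in TBI, and 6.77, 6.93 and 6.64 in HSC + TBI, and its 10 spots on an array varied with an SD of 0.08 to 0.22. The irradiated rats lay above the Control rats, and the 2 irradiated groups overlapped. It was called in TBI against Control (log2 fold change 1.34, limma adjusted p = 0.00305) and in HSC + TBI against Control (1.70, limma adjusted p = 0.00139), and not in HSC + TBI against TBI (0.36, limma adjusted p = 0.323).

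The dimmest Tfrc probe had log2 signals of 5.06, 4.55 and 4.54 in Control, 5.61, 5.65 and 4.95 in TBI, and 5.97, 6.37 and 5.93 in HSC + TBI. TBI rat 3 lay inside the Control range on this probe, and the HSC + TBI rats lay above all others. This probe disagreed with the other 2 for TBI against Control, where 0.69 was not called (limma adjusted p = 0.113), and it was called in HSC + TBI against Control (1.38, limma adjusted p = 0.0191).

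**Figure D3:**
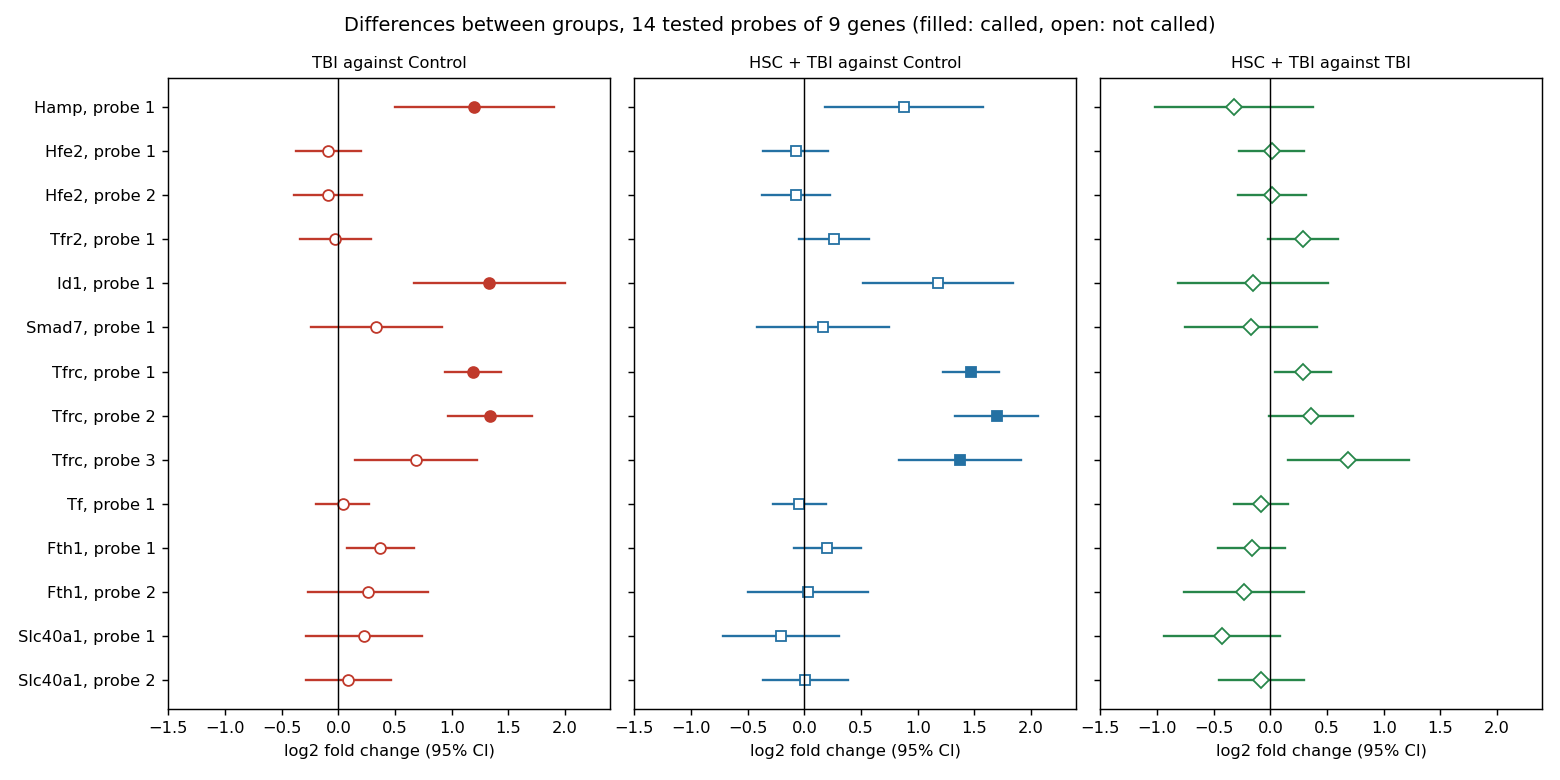
Log2 fold change with its 95% confidence interval (x axis) of the 14 tested probes of 9 genes (y axis, probes of a gene numbered from the brightest) in 3 panels, left for TBI over Control, middle for HSC + TBI over Control, right for HSC + TBI over TBI. Filled symbols are called and open symbols are not; the 3 Tfrc probes lie to the right of 0 in all 3 panels, and no symbol is filled in the right panel.

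The plot of differences by probe shows that all 3 Tfrc probes were called in HSC + TBI against Control and 2 of 3 in TBI against Control. Erythroid precursors are rich in Tfrc, so red cell markers were set beside it. Of 11 erythroid markers, 8 were on the array and 4 were above background on all 9 arrays. Their summed signal was 2078 to 5046 in Control, 1428 to 2833 in TBI and 1137 to 1943 in HSC + TBI, so it was lower in every HSC + TBI rat than in every Control rat. Of the 6 tested erythroid markers, Epb42 was called higher after TBI (log2 fold change 1.42, limma adjusted p = 0.0474), and Alas2 (-1.15) and Hbb (-1.30) were not called. The sum is of linear signals, so the brightest markers weigh most in it. In TBI against Control, 3 of the 6 markers were higher and 3 lower (log2 fold change -1.30 to 1.53). In HSC + TBI against Control, 3 of the 6 markers were again higher and 3 lower (-1.96 to 1.42). Their part in the Tfrc result was not tested.

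Tf, the plasma iron carrier made by hepatocytes, was one of the 4 brightest of the 43379 spots on every array. Its log2 signals were 18.16, 18.23 and 18.23 in Control, 18.23, 18.37 and 18.13 in TBI, and 18.16 in each of the 3 HSC + TBI rats. Quantile normalization gives a spot the mean signal of its rank, and Tf was the spot of rank 3 on all 3 HSC + TBI arrays, so the equal values there were set by the rank and their SD is no measure of the spread between rats. With a 75th percentile shift in its place, the means were 18.19 ± 0.11 for Control, 18.03 ± 0.41 for TBI and 18.33 ± 0.19 for HSC + TBI (SD, n = 3).

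**Figure D4:**
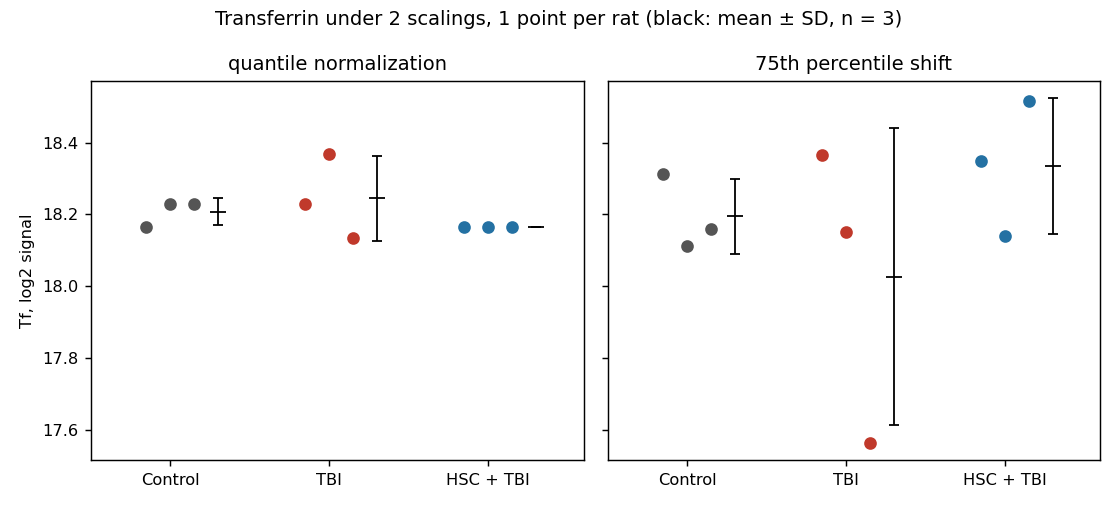
Log2 signal of Tf (y axis) in 3 Control, 3 TBI and 3 HSC + TBI rats, 1 point per rat with mean and SD in black, after quantile normalization (left) and after a 75th percentile shift (right). The 3 HSC + TBI rats are level at 18.16 on the left and spread with an SD of 0.19 on the right.

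As the plot of Tf under both scalings shows, the groups overlapped after the 75th percentile shift. The direction of each Tf difference depended on the scaling. The log2 fold change was 0.04 in TBI against Control after quantile normalization and -0.17 after the 75th percentile shift, and in HSC + TBI against Control it was -0.04 and 0.14. Neither scaling led to a call. Hamp ranked between 51 and 306 on the arrays, where its mean after the 75th percentile shift was 16.04 ± 0.62 for Control, 17.20 ± 0.30 for TBI and 17.13 ± 0.19 for HSC + TBI (SD, n = 3), so its directions were the same under both scalings.

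Fth1, the ferritin heavy chain, had log2 signals of 14.56, 14.72 and 14.75 in Control, 14.99, 15.21 and 14.92 in TBI, and 14.74, 15.02 and 14.88 in HSC + TBI. The TBI rats lay above the Control rats, and the HSC + TBI rats overlapped both. The log2 difference in TBI against Control was 0.37 (95% CI 0.08 to 0.66), a 1.29-fold difference with an unadjusted p of 0.0197 and a limma adjusted p of 0.119, which was not called. A second Fth1 probe gave 0.26 with overlapping groups (limma adjusted p = 0.516).

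Slc40a1, the iron exporter ferroportin, had log2 signals of 10.87, 11.38 and 10.88 in Control, 10.84, 11.50 and 11.47 in TBI, and 11.03, 10.89 and 10.60 in HSC + TBI. The groups overlapped in all comparisons. The log2 difference was 0.23 (95% CI -0.29 to 0.74) in TBI against Control and -0.43 (95% CI -0.94 to 0.08, limma adjusted p = 0.391) in HSC + TBI against TBI, and a second probe gave 0.09 and -0.08. Macrophages of the liver also express Slc40a1. The 8 macrophage markers on the array had a summed signal of 89184 to 139238 in Control, 93445 to 174816 in TBI and 65385 to 70710 in HSC + TBI, lowest in all HSC + TBI rats, and their part in the Slc40a1 values was not tested. None of these 8 markers was called by limma in HSC + TBI against TBI, and all 8 had an unadjusted p under 0.05, with a median log2 difference of -1.03. Over all 25369 tested probes, 4124 had an unadjusted p under 0.05 in that comparison.

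The wider iron pathway was read from a list of 82 further genes, of which 71 were on the array and 65 were tested. In TBI against Control, 2 of the 65 were up-regulated and 1 was down-regulated, a share below the 7.25% of all probes. For HSC + TBI against either Control or TBI, 0 of 65 were called by limma, with 9 and 8 genes at an unadjusted p under 0.05. Over all 25369 tested probes, 4964 and 4124 lay under that unadjusted p. The methods' t-test with adjusted p called 0 of the 65 in both comparisons. It called only 100 and 2 of all 25369 tested probes there, so its 0 of 65 says little. The median log2 fold change of the 65 genes was 0.09, 0.03 and 0.04 in the 3 comparisons.

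**Figure D5:**
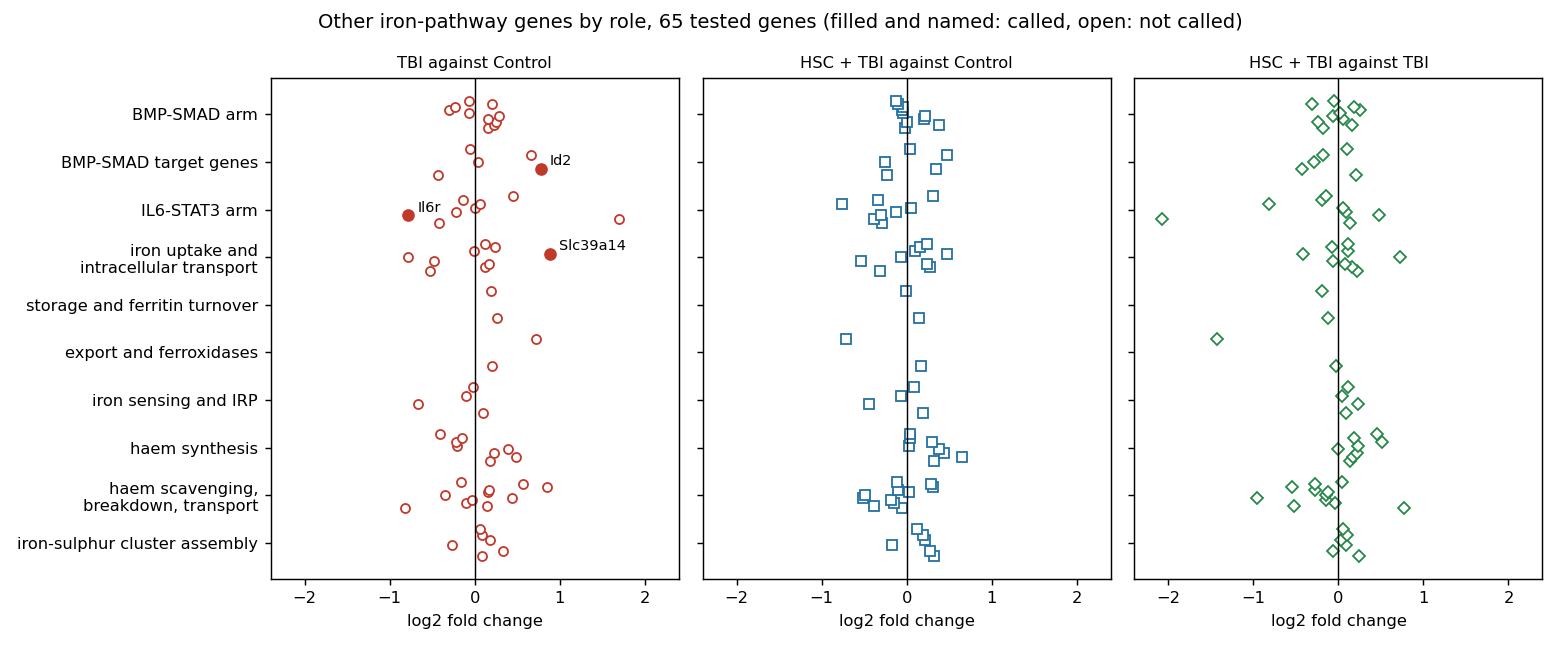
Log2 fold change (x axis) of the 65 tested genes of the wider iron pathway, grouped by role (y axis), with 1 symbol per gene and 1 panel for each pair of groups. The 3 filled and named symbols, Id2, Slc39a14 and Il6r, are the called genes, all in TBI against Control.

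The plot of pathway genes by role shows values on both sides of 0 for most roles in TBI against Control. Id2, a further target of the BMP-SMAD signal and a relative of Id1, had log2 signals of 11.31, 11.52 and 11.62 in Control, 12.60, 12.38 and 11.80 in TBI, and 11.81, 11.81 and 11.87 in HSC + TBI. Its TBI rats lay above the Control rats, and TBI rat 3 lay at the level of the HSC + TBI rats. Id2 was up-regulated 1.71-fold by TBI (limma adjusted p = 0.0476), and its second probe 2.03-fold (limma adjusted p = 0.0134). The call of the brighter probe held in 1 of 9 fits with a rat left out, that without TBI 3 (log2 fold change 1.01, limma adjusted p = 0.00651). In the other 8, without any of the remaining rats, the log2 fold change was 0.61 to 0.85 and the adjusted p by limma was 0.0698 to 0.129.

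Of the 5 tested BMP-SMAD target genes beside Id1 and Smad7, Id2 alone was called in TBI against Control, where 7.25% of all probes were called. The median log2 fold change of the 5 genes was 0.04. Of the 5, 3 were higher and 2 lower (-0.43 to 0.78). Id4 (0.67, limma adjusted p = 0.0685) was not called, but it was under normexp background correction. Among 10 tested genes of the BMP-SMAD signal itself, ligands, receptors, SMADs and modulators, 0 were called by limma in any comparison. Of these 10, 1 had an unadjusted p under 0.05 in TBI against Control and 0 in the other comparisons. Over all 25369 tested probes, 6463 did in TBI against Control. In HSC + TBI, 4964 did against Control and 4124 against TBI.

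In the interleukin 6 and STAT3 arm, 1 of 8 tested genes was called in TBI against Control, beside 7.25% of all probes. At an unadjusted limma p under 0.05, 4 of the 8 passed there, beside 6463 of all 25369 tested probes. In HSC + TBI, 1 of the 8 passed against Control and 3 against TBI, beside 4964 and 4124 of all tested probes. Il6r, the interleukin 6 receptor, had log2 signals of 11.03, 11.26 and 11.10 in Control, 10.12, 10.48 and 10.43 in TBI, and 10.98, 10.78 and 10.72 in HSC + TBI. The 3 groups did not overlap, with HSC + TBI between Control and TBI. Il6r was down-regulated 1.72-fold by TBI (log2 fold change -0.78, SE 0.14, limma adjusted p = 0.0137), and the call held in all 9 fits with a rat left out, at -0.85 to -0.67.

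In HSC + TBI, Il6r was 0.48 higher on the log2 scale than in TBI (95% CI 0.16 to 0.79, limma adjusted p = 0.157) and differed from Control by -0.30 (limma adjusted p = 0.273), and neither was called. Il1b, a cytokine of inflammation and the gene of this list with the largest difference, is given because of its value: its log2 difference was 1.69 in TBI against Control (limma adjusted p = 0.0925) and -2.08 in HSC + TBI against TBI (limma adjusted p = 0.126), without a call in either. Stat3 differed by 0.46 and Socs3 by -0.14 in TBI against Control, and neither was called.

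Among 9 tested genes of iron uptake and intracellular transport, 1 was called in TBI against Control, beside 7.25% of all probes. At an unadjusted limma p under 0.05, 4 of the 9 passed there, beside 6463 of all 25369 tested probes. In HSC + TBI, 2 of the 9 passed against Control and 1 against TBI, beside 4964 and 4124 of all tested probes. Slc39a14 (Zip14), which imports iron not bound to transferrin, had log2 signals of 9.48, 9.34 and 9.26 in Control, 9.84, 10.50 and 10.40 in TBI, and 10.18, 9.66 and 9.66 in HSC + TBI on its brightest probe. All irradiated rats lay above the Control rats, and the irradiated groups overlapped. This probe was 1.85-fold higher after TBI (limma adjusted p = 0.0373), while the other 3 Slc39a14 probes differed by 0.03 to 0.18 on the log2 scale and were not called, so the probes disagree. The call held in 2 of 9 fits with a rat left out, those without TBI 1 and without HSC + TBI 1. In the other 7, without any of the remaining rats, the limma adjusted p was 0.0501 to 0.119, with log2 fold changes of 0.76 to 0.95.

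Genes of this group with an adjusted p under 0.05 but less than a 1.5-fold change in TBI against Control were Mcoln1 (log2 difference -0.53), an endolysosomal channel that passes iron, and Slc25a28 (-0.47), a mitochondrial iron importer. Lrp1 (0.57), a receptor for haem bound to hemopexin, was the only such gene of the haem scavenging group. Slc25a28 also had an adjusted p under 0.05 in HSC + TBI against Control (-0.53, limma adjusted p = 0.0461).

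The remaining roles held 0 called genes in all 3 comparisons by limma. In TBI against Control, 1 of 2 tested genes of ferritin storage and turnover, 0 of 2 of export and ferroxidases, 1 of 4 of iron sensing, 1 of 8 of haem synthesis, 2 of 11 of haem scavenging, breakdown and transport and 2 of 6 of iron-sulphur cluster assembly had an unadjusted p under 0.05. For HSC + TBI against Control these counts were 0 of 2, 0 of 2, 0 of 4, 2 of 8, 2 of 11 and 1 of 6. For HSC + TBI against TBI they were 0 of 2, 1 of 2, 0 of 4, 1 of 8, 2 of 11 and 0 of 6. Over all 25369 tested probes, 6463 had an unadjusted p under 0.05 in TBI against Control. In HSC + TBI, 4964 did against Control and 4124 against TBI. The methods' t-test with adjusted p called 0 of the 65 pathway genes in all 3 comparisons, beside 145, 100 and 2 of all 25369 tested probes. All 8 haem synthesis genes had a positive log2 difference in HSC + TBI against Control (0.02 to 0.65, median 0.31). The median over all tested probes there was 0.05. In TBI against Control 4 of the 8 were positive (median 0.01), and in HSC + TBI against TBI 7 of the 8 were (median 0.20). Alas1, the first and rate-limiting enzyme of hepatic haem synthesis, had the largest difference from Control in HSC + TBI (0.65, limma adjusted p = 0.0825). Alas1 also differed by 0.48 in TBI against Control (limma adjusted p = 0.127). Between HSC + TBI and TBI its difference was 0.17 (limma adjusted p = 0.658). Hmox1, the inducible haem-degrading enzyme, differed by 0.44 in TBI against Control and by -0.96 in HSC + TBI against TBI (limma adjusted p = 0.189), beside the lower macrophage marker signal of the HSC + TBI rats given above.

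Over the 9 arrays, the genes with profiles nearest to that of Tfrc were Mdm2, Bax and Hsp90aa1, with root mean square distances of 0.15, 0.16 and 0.19 on the centred log2 scale among 9590 named genes. Mdm2 and Bax are known p53 target genes, and Hsp90aa1 encodes a chaperone. Among the nearest to Hamp were Arc and Cdyl2, at 0.24 each. Both were dim, with log2 group means of 4.60 to 5.60 for Arc and 3.31 to 4.15 for Cdyl2. Neither was called in any comparison. These distances describe likeness over 9 rats, and the differences between 3 groups of rats make up much of any such profile.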

How the data were processed

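Liver RNA of 9 rats was hybridised on Agilent whole rat genome arrays, and the deposited spot intensity files were made by the authors with Feature Extraction 10.7, which subtracts background from the Cy3 signal (the processed signal). The authors also deposited a log2 table normalized by quantiles, used as an alternative. Here, spots called outliers by the scanner software and control spots were left out, the processed intensity (floor 1) was log2-transformed and quantile-normalized, and spots of a probe were averaged. A probe whose spots were mostly marked well above background in every rat of some group entered the test, made with limma 3.58.1 in R 4.3.3 (lmFit, eBayes, all 9 arrays in 1 fit). The threshold was a Benjamini-Hochberg adjusted p under 0.05 with at least a 1.5-fold change. Array depth is set by signal over background and by 3 rats per group. The intervals cover only the spread between rats and their arrays, which 1 array per rat cannot separate. Limma moderates that spread over all tested probes.

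A gene was represented by its brightest tested probe. Named were all probes of the members, pathway genes called in at least 1 comparison, markers as summed signals, and the 3 nearest profiles of Tfrc and Hamp. Other genes are named because of their values, and some genes under this rule are not reported here. Members and lists were chosen with earlier results of these data known. Gene names came from RefSeq accessions (16968 probes, 13438 genes), and 11 of the 82 pathway genes had no probe. Same-numbered rats were not paired (correlations of deviations -0.14 to 0.19 in 9 pairs, -0.12 to 0.14 in 18 other pairs). The procedure was tested on simulated data. The motif TTCNNNGAA was added after the promoters were seen. Further marker lists had these ranges: stellate cells (7 markers) 4594 to 5776 in Control, 4139 to 5591 in TBI and 4858 to 5689 in HSC + TBI, lymphocytes (6) 468 to 589, 198 to 402 and 267 to 374, with Cd3e at background throughout, and neutrophils (6) 376 to 618, 387 to 785 and 238 to 308, with Elane at background throughout.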

Additional observations from a re-analysis of the deposited data

How the results depend on the processing

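Of the single-gene values under the other settings, 672 kept their direction and side of the threshold, 48 lost a call, 5 gained one and 22 changed sign. The members called in TBI against Control numbered 3, and 1 without the filter on dim probes, in a fit of the compared groups alone and with the methods' t-test and adjusted p; leaving out 1 rat gave 1 to 2. In HSC + TBI against Control they numbered 1, and 2 in the fit of the compared groups and with the methods' t-test and unadjusted p, 3 with slide as a random block (slide correlation -0.33), and 1 to 2 with a rat left out, the 2 being without TBI 2. In HSC + TBI against TBI they numbered 0 throughout. Pathway genes called in TBI against Control numbered 3, and 1 without the filter, 1 in the fit of the compared groups, 5 and 0 with the methods' t-test (unadjusted and adjusted p), 6 with no minimum fold change, 7 with slide as a random block, and 1 to 5 with a rat left out. In HSC + TBI against Control they were 0, and 1 with the 75th percentile shift, 3 with the methods' t-test and unadjusted p, 1 with no minimum fold change, 2 with the slide block and 0 to 1 with a rat left out. In HSC + TBI against TBI they were 0, and 5 with the slide block and 0 to 4 with a rat left out, the 4 (Jak2, Il1b, Heph, Hmox1) being without TBI 1, which also gave the 5 in TBI against Control and the 1 (Jak2) in HSC + TBI against Control. The cause was not tested. With the replicate number as a block (replicate block), the members called were 2, 1 and 0 and the pathway genes 1, 0 and 0. The Hamp call was lost and that of Id1 was not. The Control arrays shared 1 slide and the TBI arrays another, so slides could be compared within a group only in HSC + TBI. Slide as a random block therefore cannot separate slide from group, and its counts decide nothing about slides.

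Direction changed under the 75th percentile shift for Tfr2 (0.0185) and Tf (-0.17) in TBI against Control, for Hfe2 (0.0368) and Tf (0.14) in HSC + TBI against Control and for Tf (0.31) in HSC + TBI against TBI. Under normexp it changed for Tfr2 (0.0752) in TBI against Control and for Tf in HSC + TBI against Control (0.0472) and against TBI (0.0050). Other probes turned Slc40a1 in HSC + TBI against Control (0.0077) and Slc39a14 in HSC + TBI against TBI (0.19, 0.0754 and 0.0617). With a rat left out, ranges crossing 0 were -0.14 to 0.0452 for Tfr2 and -0.0254 to 0.0918 for Tf in TBI against Control, and -0.33 to 0.15 for Smad7, -0.37 to 0.16 for Id1 and -0.0493 to 0.0554 for Hfe2 in HSC + TBI against TBI. None of these values was called.

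The counts over all tested probes were 1839, 820 and 202 in the 3 comparisons and ranged from 145 to 4528, 100 to 2573 and 2 to 2256 over the other settings. The highest count in each comparison was that with slide as a random block. Signal over background limits Bmp6, and 3 rats per group limit all intervals.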
